A study of Mus musculus with 82 samples.

Results

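Common myeloid progenitors (CMP) are bone marrow cells that can still give rise to granulocytes, monocytes, megakaryocytes and erythrocytes, and granulocyte-monocyte progenitors (GMP) are their descendants on the way to granulocytes and monocytes. To compare the transcriptomes of these populations, the 2 mRNA-seq libraries of young CMP and the 2 of young GMP were used, 4 of the 82 samples listed for the study, with the 2 young libraries of megakaryocyte-erythrocyte progenitors (MEP) for reference. All of these cells came from the bone marrow of wild-type mice, carried the same batch number and are labelled with no treatment. The methods state that young mice were male C57BL/6J animals of 3 to 4 months. The sources used here do not give the surface markers that defined CMP, GMP and MEP, or whether the 2 libraries of a population came from separate mice. The p-values below therefore measure the spread between these libraries, which may be technical.

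As background, the granulocyte branch begins when the transcription factors PU.1 and the C/EBP family take over from GATA factors, which drive the erythroid and megakaryocyte branch. GMP are known for expressing genes of the azurophil granules, the earliest granules of the neutrophil, among them those of myeloperoxidase and serine proteases. The proteins of the specific and gelatinase granules are made later, after the progenitor stage, and mature erythroid and platelet proteins are made in the other branch.

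Short stretches of promoters are shown here as examples, chosen after the matches were seen, from genes called in either direction, and capitals mark letters known from the binding sites of these factor families. They come from RefSeq (GRCm38.p6, the build also called mm10), read 5′ to 3′ on the strand of the gene, and end before its RefSeq start. This start can differ from the GENCODE gene positions given elsewhere, in which the stretches of Prtn3, Fcgr3 and Gfi1 lie inside the gene and those of Mpo and Elane reach over its start. The letters GAGGAAGT (PU.1) stood before the RefSeq starts of the azurophil granule genes Mpo (chr11:87793534-87793597, plus strand), Elane (chr10:79886197-79886264, plus strand) and Prtn3 (chr10:79879542-79879609, plus strand), at 224, 85 and 95 bases before them.
Mpo: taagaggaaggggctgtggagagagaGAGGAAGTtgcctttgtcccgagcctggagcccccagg
Elane: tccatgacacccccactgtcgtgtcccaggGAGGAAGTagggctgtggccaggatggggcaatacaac
Prtn3: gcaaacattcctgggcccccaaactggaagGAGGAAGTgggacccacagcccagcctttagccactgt

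The letters TTNNGCAA or their reverse complement TTGCNNAA (C/EBP, where N is any base) stood before the Fc receptor gene Fcgr3 (chr1:171059404-171059461, minus strand) and the repressor gene Gfi1 (chr5:107725911-107725978, minus strand). For GATA factors the letters searched were AGATAA, shown for Epor and Gp5 as the reverse complement, and they stood before 3 genes that were lower in GMP, the erythropoietin receptor gene Epor (chr9:21963595-21963660, minus strand), the platelet glycoprotein gene Gp5 (chr16:30310823-30310904, minus strand), which held 2 copies, and the lymphoid polymerase gene Dntt (chr19:41029133-41029198, plus strand).
Fcgr3: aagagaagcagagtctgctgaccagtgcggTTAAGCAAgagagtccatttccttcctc
Gfi1: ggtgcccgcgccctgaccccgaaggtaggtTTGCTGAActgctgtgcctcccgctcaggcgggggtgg
Epor: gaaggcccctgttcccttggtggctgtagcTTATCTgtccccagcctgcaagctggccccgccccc
Gp5: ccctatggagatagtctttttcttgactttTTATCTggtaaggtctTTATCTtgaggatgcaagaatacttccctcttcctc
Dntt: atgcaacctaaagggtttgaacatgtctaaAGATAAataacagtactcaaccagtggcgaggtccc

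The libraries held 36510850 and 35675043 reads on genes in CMP, 35502264 and 33177394 in GMP, and 35509939 and 35339966 in MEP. Levels are given as CPM, the reads of a gene relative to all reads of its library, normalised by TMM over the 4 libraries. A CPM does not correct for gene length, so levels are compared between populations and not between genes. The log2 CPM of the 2 CMP libraries correlated at r = 0.9895 and those of the 2 GMP libraries at r = 0.9862 across genes, against 0.9479 to 0.9596 between the populations. It was 0.8224 to 0.8534 between either population and MEP. Mpo alone took 4.488% and 4.471% of all reads in GMP, against 1.643% and 1.384% in CMP. Of the 4 marker genes of GMP checked against the labels, Mpo, Elane and Ms4a3 were higher in GMP than in CMP and S100a8 was not. RNA of all cells in a sample is measured together, so a difference in the share of cells that express a gene and a difference in its level per cell cannot be told apart.

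Of 55376 genes in the files, 17458 passed the filter on low counts and entered edgeR's quasi-likelihood test. In GMP, 1065 genes (6.1%) were higher and 2055 genes (11.8%) lower than in CMP at a fold change above 1.5 and a Benjamini-Hochberg adjusted p below 0.05, together 17.9% of the genes tested. The shares of 6.1% and 11.8% are the background for every count of list members below. Differences over 4-fold were called for 217 of the higher and 669 of the lower genes. The median log2 fold change of all tested genes was -0.022. With scaling by total counts alone, in place of TMM, that median moved to -0.201, 725 genes were higher and 2981 lower, and the share of called genes that were higher fell from 34.1% to 19.6%. No gene called in either direction was called in the other direction when any 1 of the 4 libraries was left out.

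**Figure D1:**
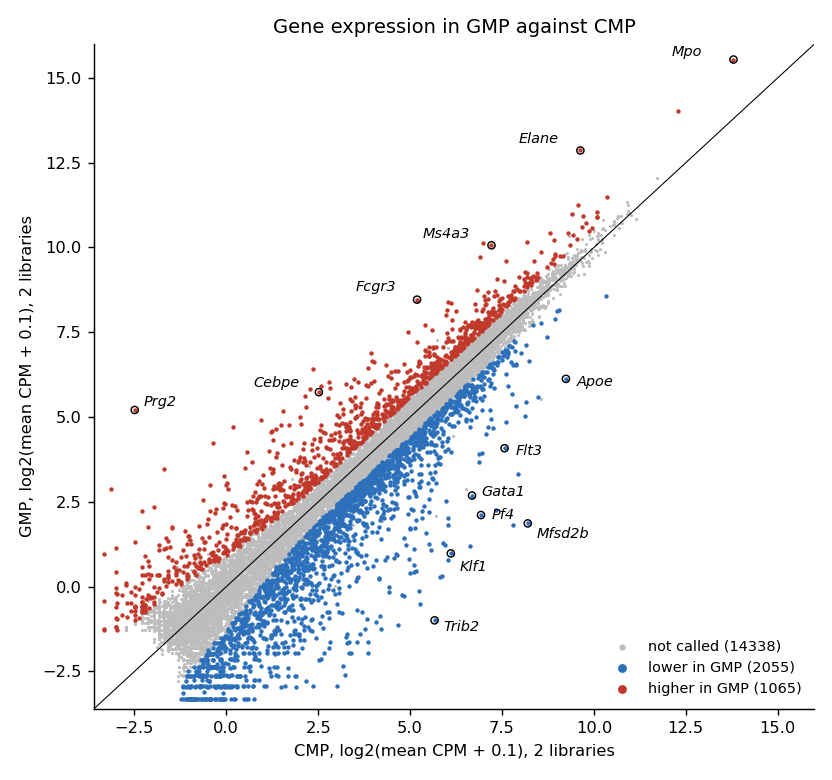
Each point is 1 of the 17458 tested genes, with its mean level in the 2 CMP libraries on the horizontal and in the 2 GMP libraries on the vertical axis, both as log2(CPM + 0.1). Red marks the 1065 genes called higher in GMP, blue the 2055 called lower, and the diagonal marks equal levels. The 13 genes named on the plot lie far from it, Mpo at the upper end and Prg2 at the left.

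Most of the azurophil granule genes tested were higher in GMP. Of the 19 tested members of this list, 14 were higher in GMP, none was lower and the median log2 fold change was 1.02. CMP replicate 2 was above CMP replicate 1 in 2 of the 19, against 49.9% of all tested genes. In GMP this was so for 6, against 51.0%. Mpo, which encodes myeloperoxidase (chr11:87793581-87804413, plus strand), stood at 15481 and 12994 CPM in CMP and 47842 and 47549 CPM in GMP, a 3.35-fold difference (log2 fold change 1.74, SE 0.09, adjusted p = 2.31e-04). Elane, neutrophil elastase, was measured at 966 and 621 CPM in CMP and 7643 and 7224 CPM in GMP (log2 fold change 3.23, SE 0.33, adjusted p = 0.0229), with the 2 GMP libraries close together and the 2 CMP libraries further apart.

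Prtn3, proteinase 3, lies next to Elane on chromosome 10 and stood at 835 and 682 CPM in CMP and 2588 and 2251 CPM in GMP (log2 fold change 1.67, SE 0.14, adjusted p = 0.00264). Ctsg, cathepsin G, was at 741 and 626 CPM in CMP and 2064 and 1982 CPM in GMP (log2 fold change 1.57, SE 0.08, adjusted p = 3.91e-06). Ms4a3, a membrane protein gene used to trace GMP progeny, was at 185 and 112 CPM in CMP and 1073 and 1070.0 CPM in GMP (log2 fold change 2.85, SE 0.36, adjusted p = 0.0327). Both GMP libraries lay above both CMP libraries in all 5 of these genes, as in 32.9% of all tested genes (68.6% had no overlap in either direction). Their summed share of all reads was 1.933% and 1.601% in CMP and 5.742% and 5.649% in GMP. The calls of Elane and Ms4a3 ended when GMP replicate 1 or GMP replicate 2 was left out, with a highest adjusted p of 0.151 and 0.189. They also ended with the replicate block, and that of Ms4a3 without a filter on low counts, so that 9 and 8 of the 12 alternatives kept them. Their log2 fold changes stayed between 2.95 and 3.59 for Elane and between 2.54 and 3.28 for Ms4a3 over the 12 alternatives in test, scaling, filter, samples and blocking. Over these alternatives the adjusted p ran from 1.81e-22 to 0.151 for Elane and from 4.15e-14 to 0.189 for Ms4a3.

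The granule membrane gene Cd63 (log2 fold change 1.39), the cytotoxic granule gene Nkg7 (log2 fold change 1.23) and the protease inhibitor gene Serpinb1a (log2 fold change 0.83) were also higher. Fcnb, a ficolin of the granulocyte, stood at 1.42 and 0.447 CPM in CMP and 8.62 and 5.80 CPM in GMP (log2 fold change 2.94). Lyz2, lysozyme, was at 214 and 199 CPM in CMP and 295 and 262 CPM in GMP and was not called (log2 fold change 0.43). The antisense gene Gm11505 (chr11:87795784-87801144, minus strand) lies within Mpo and followed it, with 5389 and 4567 CPM in CMP and 16687 and 16794 CPM in GMP. No source used here states whether reads were counted by strand, so reads of Gm11505 and Mpo cannot be told apart.

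Genes of the later granules did not follow as a group. Of 18 tested members of the specific granule and alarmin list, 5 were higher, 4 lower and 9 not called, with a median log2 fold change of -0.282. Among all tested genes, 6.1% were higher and 11.8% lower. Among those that rose were Pglyrp1, a peptidoglycan recognition protein (8.49 and 5.53 CPM in CMP and 53.5 and 62.1 CPM in GMP, log2 fold change 3.04), and Hp, haptoglobin (75.2 and 62.5 against 344 and 319 CPM, log2 fold change 2.27). Anxa1, the anti-inflammatory annexin (log2 fold change 1.57), Wfdc21 and Ceacam1 also rose. Among those that fell were Ngp, neutrophilic granule protein (15.8 and 18.2 CPM in CMP and 3.96 and 8.05 CPM in GMP, log2 fold change -1.51), and Camp, cathelicidin (6.58 and 3.58 against 0.661 and 2.05 CPM, log2 fold change -1.91). The chitinase-like gene Chil3 (log2 fold change -1.46) and the collagenase gene Mmp8 (log2 fold change -0.93) fell too. The call of Ngp ended without CMP replicate 2 (adjusted p = 0.0524, 5.59e-18 to 0.359 over the 12 alternatives) and that of Camp without CMP replicate 1 (adjusted p = 0.0981, 4.56e-10 to 0.117), and 10 and 9 of these alternatives kept the calls.

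S100a8, a calprotectin subunit and 1 of the 4 GMP markers, stood at 20.5 and 12.9 CPM in CMP and 14.7 and 17.7 CPM in GMP (log2 fold change -0.05, SE 0.21, adjusted p = 0.892), and the libraries overlapped. Its sign changed when CMP replicate 1 or GMP replicate 1 was left out, with log2 fold changes of 0.34 and 0.088. Its partner S100a9 was at 12.9 and 8.84 CPM in CMP and 1.20 and 5.61 CPM in GMP and was not called (log2 fold change -1.69, SE 0.86, adjusted p = 0.268). It was called lower without GMP replicate 1 or GMP replicate 2, with log2 fold changes of -3.17 to -0.95 over the 12 alternatives. Ltf, lactotransferrin, was not called either, at 7.95 and 8.47 CPM in CMP and 1.38 and 4.84 CPM in GMP (log2 fold change -1.41), but was called lower in 4 of the 12 alternatives (log2 fold changes of -2.56 to -0.76). The count of lower members ranged from 3 to 7 when 1 library was left out and was 0 when the MEP libraries entered the fit. Of the genes of mature neutrophils, 4 that had few reads were uneven between libraries, and they were picked after their values were seen. Ly6g had 0 and 5 raw reads in CMP and 2 and 4 in GMP, and Fpr1 had 0 and 2 against 0 and 8. Mmp9 had 22 and 0 raw reads in CMP against 0 and 10 in GMP, and Retnlg had 24 and 4 against 0 and 11. Of the 6 members of the mature neutrophil list that were tested, 2 were higher (Csf3r and Trem1), 2 lower (Cxcr2 and Il1b) and 2 not called. Their summed level was 153.4 and 133.2 CPM in CMP and 251.1 and 240.9 CPM in GMP. The part of these cells in the levels of Ngp and Camp was not tested.

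**Figure D2:**
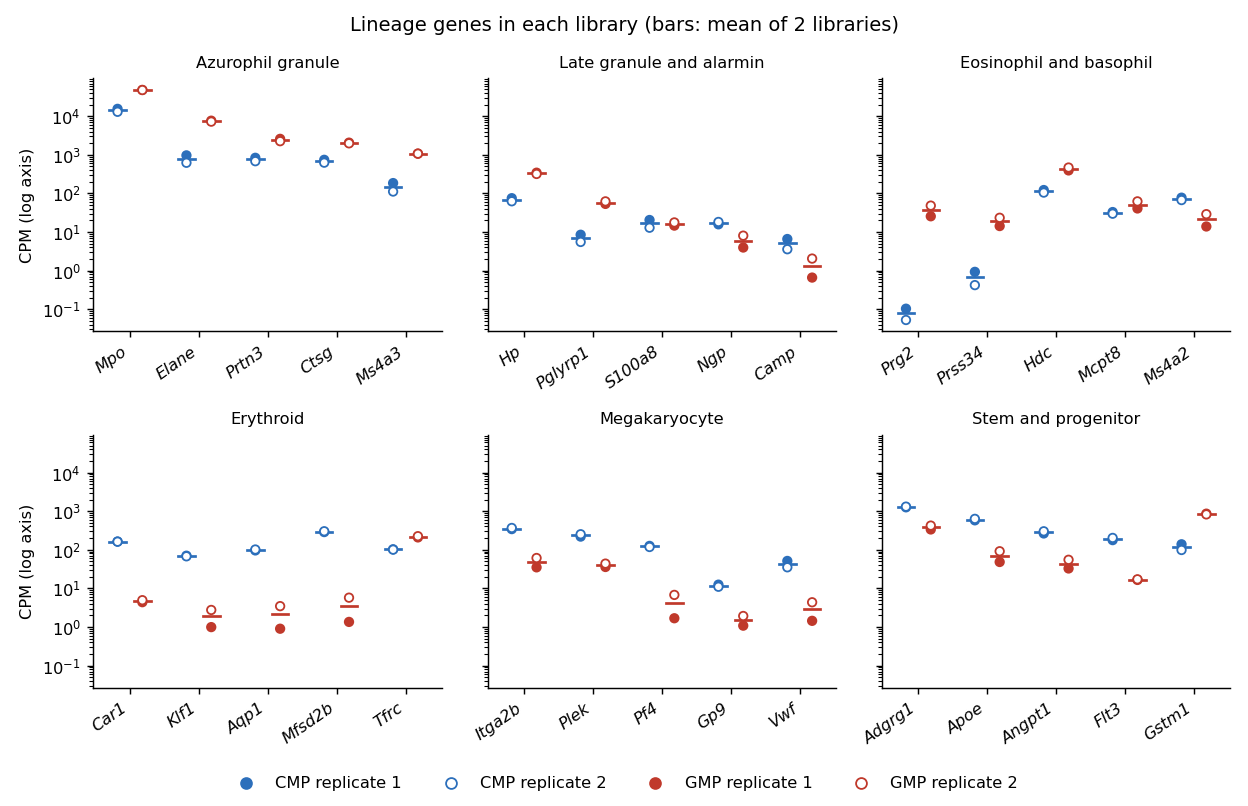
The level of 30 genes in each library is plotted in CPM on a log axis, 5 genes a panel, with CMP in blue, GMP in red, replicate 1 filled, replicate 2 open and a bar at the mean of the 2 libraries. The azurophil genes lie higher in GMP, S100a8 overlaps, Ngp and Camp lie lower, Prg2 and Prss34 are below 1 CPM in CMP, and the erythroid and megakaryocyte genes lie lower in GMP with Tfrc as the exception.

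Among transcription factors of the granulocyte and monocyte branch, 6 of 19 were higher, 2 lower and 11 not called. Of all tested genes, 6.1% were higher and 11.8% lower. Cebpe, a C/EBP factor of granule maturation, stood at 6.84 and 4.42 CPM in CMP and 48.3 and 58.0 CPM in GMP (log2 fold change 3.24, SE 0.19, adjusted p = 5.29e-06). Gfi1, a repressor needed for neutrophil production, was at 31.6 and 25.7 CPM in CMP and 86.1 and 103 CPM in GMP (log2 fold change 1.72, SE 0.12, adjusted p = 7.53e-06). Klf4, a monocyte factor, was low at 0.568 and 0.526 CPM in CMP and 6.43 and 5.06 CPM in GMP (log2 fold change 3.38, SE 0.29, adjusted p = 6.78e-06). Cebpb, the C/EBP factor of emergency granulopoiesis, was at 38.5 and 51.9 CPM in CMP and 110.3 and 132 CPM in GMP (log2 fold change 1.42).

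The factors that establish the branch differed by less than 1.5-fold between CMP and GMP. Spi1, which encodes PU.1, was at 149 and 159 CPM in CMP and 237 and 224 CPM in GMP and missed the fold threshold (log2 fold change 0.58, SE 0.06, adjusted p = 1.51e-05). Cebpa was at 47.5 and 53.8 CPM in CMP and 59.8 and 79.0 CPM in GMP (log2 fold change 0.45, SE 0.13, adjusted p = 0.0278). Irf8, the monocyte and dendritic cell factor, was at 403 and 361 CPM in CMP and 572 and 433 CPM in GMP (log2 fold change 0.40, SE 0.17, adjusted p = 0.181). Spi1 passed the fold threshold in 6 of the 12 alternatives, Cebpa without GMP replicate 1 and Irf8 without GMP replicate 2. The 2 factors that were lower were Runx1, a factor of definitive blood formation (168 and 177 CPM in CMP and 105 and 113 CPM in GMP, log2 fold change -0.65), and Rara, the retinoic acid receptor (log2 fold change -0.77, adjusted p = 0.0362). The call of Rara ended without CMP replicate 1, CMP replicate 2 or GMP replicate 1 (highest adjusted p = 0.184, and 3.73e-05 to 0.184 over the 12 alternatives).

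Of 19 tested monocyte and dendritic cell genes, 4 were higher, 2 lower and 13 not called, beside 6.1% higher and 11.8% lower among all tested genes. The count of lower members was 1 to 4 when 1 library was left out (1 without CMP replicate 2 and 4 without GMP replicate 2). Ly6c2, a monocyte surface gene of the Ly6 family, stood at 159 and 92.9 CPM in CMP and 1244 and 979.9 CPM in GMP (log2 fold change 3.14, SE 0.42, adjusted p = 0.0379). Clec4a2, a lectin receptor, was at 1.08 and 0.632 against 9.13 and 9.94 CPM (log2 fold change 3.47). The call of Ly6c2 ended without GMP replicate 1 or GMP replicate 2 (highest adjusted p = 0.176, 1.09e-12 to 0.176 over the 12 alternatives), and Ly6 genes are similar in sequence, so their counts are uncertain. Csf1r, the M-CSF receptor, was at 194 and 177 CPM in CMP and 255 and 217 CPM in GMP (log2 fold change 0.35) and Ly86 at 74.7 and 61.1 against 106 and 91.0 CPM (log2 fold change 0.54), and neither was called. Ly86 was called higher without CMP replicate 1 or GMP replicate 2. F13a1, factor XIII of monocytes, was at 707 and 584 CPM in CMP and 1457 and 1115 CPM in GMP (log2 fold change 0.99, SE 0.21, adjusted p = 0.0622), was not called and was called in 5 of the 12 alternatives. The antigen presentation genes H2-Ab1 (log2 fold change -0.89) and H2-Aa (log2 fold change -1.19) were lower. The call of H2-Aa ended without CMP replicate 2 or GMP replicate 1 (highest adjusted p = 0.185, 6.72e-06 to 0.185 over the 12 alternatives).

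Of 21 tested genes for the phagocyte oxidase and for pattern recognition, 10 were higher and 1 lower, and 5 were higher at a fold threshold of 2. Cybb, the catalytic subunit of the oxidase, was at 15.4 and 13.4 CPM in CMP and 91.1 and 82.9 CPM in GMP (log2 fold change 2.60, SE 0.10, adjusted p = 2.62e-08). Its partners Cyba (log2 fold change 0.88) and Ncf1 (log2 fold change 0.83) rose as well. The endotoxin receptor genes Cd14 (1.55 and 1.68 CPM in CMP and 6.61 and 7.05 CPM in GMP, log2 fold change 2.08) and Tlr4 (8.93 and 5.18 against 22.6 and 21.9 CPM, log2 fold change 1.66) and the lectin gene Clec12a (log2 fold change 1.45) were also higher. Alox5, 5-lipoxygenase, was lower (log2 fold change -0.73, adjusted p = 0.0471), a call that ended without CMP replicate 1, CMP replicate 2 or GMP replicate 1 (highest adjusted p = 0.208, 4.85e-08 to 0.208 over the 12 alternatives, of which 8 kept the call).

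Of 32 tested genes for endoplasmic reticulum chaperones and protein translocation, 22 were higher in GMP and none was lower, with a median log2 fold change of 0.81. Replicate 2 was above replicate 1 in 5 of the 32 in CMP and 7 in GMP, against 49.9% and 51.0% of all tested genes. Calr, the chaperone calreticulin, was at 1465 and 1169.5 CPM in CMP and 3054 and 2749.7 CPM in GMP (log2 fold change 1.14, SE 0.14, adjusted p = 0.00966). P4hb, a protein disulfide isomerase, was at 895 and 781 CPM in CMP and 1980.5 and 1896 CPM in GMP (log2 fold change 1.21, SE 0.06, adjusted p = 1.05e-06). Hspa5, the chaperone BiP, was at 1110.1 and 1043 CPM in CMP and 2157 and 2081 CPM in GMP (log2 fold change 0.98, SE 0.04, adjusted p = 8.89e-08). Xbp1, the transcription factor of this pathway, was at 175 and 187 CPM in CMP and 359 and 376 CPM in GMP (log2 fold change 1.02), and the largest difference of the list was that of Sdf2l1 (log2 fold change 1.28). Ddit3, the stress gene CHOP, was not called (19.3 and 20.0 CPM in CMP and 16.7 and 18.1 CPM in GMP, log2 fold change -0.17). The call of Calr ended without GMP replicate 2 (adjusted p = 0.115, 1.54e-09 to 0.115 over the 12 alternatives), and with a fold threshold of 2 the list kept 6 higher members.

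Glycolysis and the pentose phosphate pathway were higher in 13 of 27 tested genes and lower in 4. With scaling by total counts alone 7 were higher, and at a fold threshold of 2, 4 were higher and 2 lower. Gpi1, glucose-6-phosphate isomerase, was at 509 and 456 CPM in CMP and 1161 and 1203 CPM in GMP (log2 fold change 1.29, SE 0.05, adjusted p = 6.36e-08). Pgd, of the pentose phosphate pathway, was at 138 and 129 CPM in CMP and 336 and 315 CPM in GMP (log2 fold change 1.29, SE 0.06, adjusted p = 8.10e-08). Pkm, pyruvate kinase, was at 907 and 861 CPM in CMP and 1692 and 1679 CPM in GMP (log2 fold change 0.93). Isozymes of the same step differed in their values. Ldhb stood at 13 and 10.6 CPM in CMP and 61.2 and 71.0 CPM in GMP (log2 fold change 2.49), whereas Ldha, the other lactate dehydrogenase gene shown, was not called (1469.6 and 1489 CPM in CMP and 1622 and 1615 CPM in GMP, log2 fold change 0.13). Hk3 was higher (log2 fold change 1.16) and Hk1 lower (log2 fold change -0.63), and Pfkm (log2 fold change -0.85) and the glucose transporter gene Slc2a3 (log2 fold change -1.30) were lower.

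Of 20 genes for heme synthesis and iron handling, 4 were higher (Alas1, Abcb10, Tfrc and Slc40a1) and none was lower, while 2 were lower with scaling by total counts alone. Alas1, which encodes the housekeeping form of the rate-limiting enzyme, was at 295 and 288 CPM in CMP and 1077 and 1209.8 CPM in GMP (log2 fold change 1.97, SE 0.06, adjusted p = 6.63e-09), and heme is the cofactor of myeloperoxidase. The erythroid form, Alas2, had at most 0.553 CPM in any of the 4 libraries. The iron importer gene Tfrc (103 and 101 CPM in CMP and 209 and 224 CPM in GMP, log2 fold change 1.09) and the exporter gene Slc40a1 (10.4 and 9.63 against 23.6 and 25.8 CPM, log2 fold change 1.30) are not enzymes of heme synthesis.

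Among called genes at 10 CPM or more in GMP whose libraries did not overlap, the largest fold changes upward were those of Prg2, Prg3 and Prss34, granule genes of eosinophils and basophils that were below 1 CPM in CMP. Prg2, the major basic protein of eosinophils (chr2:84980461-84983632, plus strand), stood at 0.103 and 0.0526 CPM in CMP and 25.6 and 48.2 CPM in GMP (log2 fold change 8.82, SE 0.63, adjusted p = 5.24e-04). Its neighbour Prg3 (chr2:84988215-84993886, plus strand) was at 0.258 and 0.158 CPM in CMP and 9.91 and 12.2 CPM in GMP (log2 fold change 5.71, SE 0.30, adjusted p = 2.32e-07). Prss34, a basophil protease, was at 0.929 and 0.421 CPM in CMP and 14.3 and 23.4 CPM in GMP (log2 fold change 4.79, SE 0.38, adjusted p = 5.00e-05). Epx, eosinophil peroxidase, was below 10 CPM on average. It lies on chromosome 11 near Mpo and had 462 raw reads over the 2 GMP libraries and 1 read over the 2 CMP libraries. This is a ratio of 486.0 with a 95% exact binomial interval of 86.7 to 19200.0. Hdc, which makes histamine, was at 122 and 105 CPM in CMP and 394 and 467 CPM in GMP (log2 fold change 1.92, SE 0.11, adjusted p = 2.52e-05).

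In all, 8 of 16 tested mast cell, basophil and eosinophil genes were higher and 4 lower. The basophil protease gene Mcpt8 differed little (32.9 and 29.8 CPM in CMP and 40.7 and 62.2 CPM in GMP, log2 fold change 0.71, SE 0.21, adjusted p = 0.047). Its call was kept in 5 of the 12 alternatives and ended, among others, without CMP replicate 1, CMP replicate 2 or GMP replicate 2. Cpa3, mast cell carboxypeptidase, was not called (231 and 244 CPM in CMP and 142 and 254 CPM in GMP, log2 fold change -0.26), but was called lower without GMP replicate 2 (log2 fold changes of -0.74 to 0.10 over the 12 alternatives). Ms4a2, the beta chain of the high-affinity IgE receptor, was not called at 77.5 and 67.2 CPM in CMP and 13.9 and 29.0 CPM in GMP (log2 fold change -1.76, SE 0.46, adjusted p = 0.1), but was called lower in 4 of the 12 alternatives (log2 fold changes of -2.37 to -1.31, adjusted p from 1.09e-27 to 0.398). Fcer1a, the alpha chain (log2 fold change -1.57), and Il1rl1, the IL-33 receptor (37.4 and 43.2 CPM in CMP and 2.49 and 5.45 CPM in GMP, log2 fold change -3.35), were lower. Over the 12 alternatives the adjusted p of Mcpt8 ran from 1.59e-16 to 0.334.

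These genes differed between the GMP libraries. All 16 were higher in GMP replicate 2 than in GMP replicate 1, against 51.0% of all tested genes. In CMP, 3 of 16 were higher in CMP replicate 2 than in CMP replicate 1, against 49.9%. The mast cell protease gene Cma1 had 16 and 100 raw reads in GMP and none in CMP, a difference of at least 40.6-fold against a floor of 3 reads over the CMP libraries. Tpsb2 had 0 and 46 reads in GMP and none in CMP. Without CMP replicate 1 or CMP replicate 2 the list held 5 higher members, with Prg2 no longer called (highest adjusted p = 0.0892, 1.54e-153 to 0.0892 over the 12 alternatives). Without GMP replicate 1 it held 10 and without GMP replicate 2 it held 7 higher and 7 lower members. The call of Fcer1a ended without CMP replicate 1 (adjusted p = 0.136, 7.53e-08 to 0.136 over the 12 alternatives, of which 10 kept the call).

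The other genes with the largest upward fold changes, at 10 CPM or more in GMP, were Olr1, Sgms2, Prom1, Hsd11b1, Chst13, Ly6a2 and Mgam. Olr1, a scavenger receptor for oxidised lipoprotein, was at 1.5 and 0.553 CPM in CMP and 23.5 and 28.8 CPM in GMP (log2 fold change 4.66, SE 0.34, adjusted p = 4.09e-05). Sgms2, a sphingomyelin synthase, was at 7.46 and 2.68 CPM in CMP and 95.8 and 76.7 CPM in GMP (log2 fold change 4.08, SE 0.59, adjusted p = 0.0369). Hsd11b1, which activates glucocorticoids, was at 3.23 and 2.37 CPM in CMP and 37.5 and 34.6 CPM in GMP (log2 fold change 3.69, SE 0.16, adjusted p = 6.85e-08). Chst13, a chondroitin sulfotransferase, was at 5.83 and 3.66 CPM in CMP and 57.0 and 56.2 CPM in GMP (log2 fold change 3.57, SE 0.18, adjusted p = 1.21e-06). Prom1 (log2 fold change 4.03), Ly6a2 (log2 fold change 3.50) and Mgam (log2 fold change 3.48) lay between 3.4 and 4.1 on the log2 scale. The calls of Sgms2, Prom1 and Ly6a2 ended without GMP replicate 1 or GMP replicate 2, with highest adjusted p of 0.211, 0.260 and 0.155. Their ranges over the 12 alternatives were 7.62e-09 to 0.211, 1.40e-07 to 0.26 and 4.24e-10 to 0.155, with the call kept in 9, 9 and 10 of them.

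Among genes that were lower in GMP, the megakaryocyte and platelet genes had the lowest median of all gene lists. Of 21 tested members, 19 were lower in GMP and none was higher, with a median log2 fold change of -3.91. Itga2b, the integrin chain CD41, was at 343 and 366 CPM in CMP and 35 and 61.1 CPM in GMP (log2 fold change -2.89, SE 0.37, adjusted p = 0.0318). Pf4, platelet factor 4, was at 126 and 118 CPM in CMP and 1.68 and 6.76 CPM in GMP (log2 fold change -4.87, SE 0.69, adjusted p = 0.0398), a 29.2-fold difference. Plek, pleckstrin, was at 219 and 252 CPM in CMP and 35.8 and 43.7 CPM in GMP (log2 fold change -2.57, SE 0.11, adjusted p = 1.17e-06). Gp5 (50.4 and 62.3 against 0.120 and 2.12 CPM), Gp9 (12.5 and 11.0 against 1.08 and 1.92 CPM) and Vwf (51.2 and 35.1 against 1.44 and 4.36 CPM) encode parts of the platelet adhesion system and were lower too. Both GMP libraries lay below both CMP libraries in all 6 of these genes, as in 35.7% of all tested genes. Nbeal2, an alpha granule gene, was not called (56.5 and 56.6 CPM in CMP and 47.2 and 51.5 CPM in GMP, log2 fold change -0.20).

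GMP replicate 2 held more of these transcripts than GMP replicate 1 in 19 of the 21 genes. This held for 51.0% of all tested genes and 62.2% of all genes called lower. The summed level of the list was 185.6 and 257.1 CPM in GMP against 1289 and 1332 CPM in CMP. The part of this difference between the GMP libraries in the calls was not tested beyond leaving out each library. Without CMP replicate 1 or 2, when the spread came from the GMP libraries alone, 12 and 13 members were called lower, and without GMP replicate 1 or 2, 19 each. The calls of Pf4, Itga2b, Vwf and Gp5 ended without either CMP library, with highest adjusted p of 0.243, 0.221, 0.159 and 0.286. Over the 12 alternatives their adjusted p ran from 1.88e-149 to 0.243, 3.62e-132 to 0.221, 2.24e-15 to 0.176 and 1.95e-94 to 0.286, with the call kept in 8, 8, 8 and 7 of them, and all log2 fold changes of these 4 genes lay between -8.83 and -2.53.

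Erythroid genes were lower in 17 of 23 tested members and higher in 1, the median log2 fold change being -3.46. Klf1, the erythroid Kruppel-like factor, was at 70.1 and 67.6 CPM in CMP and 0.991 and 2.76 CPM in GMP (log2 fold change -5.21, SE 0.37, adjusted p = 9.18e-04). Car1, carbonic anhydrase 1, was at 163 and 162 CPM in CMP and 4.38 and 4.94 CPM in GMP (log2 fold change -5.12, SE 0.09, adjusted p = 9.78e-11). Car2, the second carbonic anhydrase of the red cell, was at 261 and 302 CPM in CMP and 28.7 and 37.2 CPM in GMP (log2 fold change -3.10, SE 0.14, adjusted p = 4.62e-05). Epor, the erythropoietin receptor, was at 16.4 and 20.1 CPM in CMP and 0.330 and 0.577 CPM in GMP (log2 fold change -5.33, SE 0.26, adjusted p = 1.25e-07). Mfsd2b, a sphingosine-1-phosphate exporter of red cells and platelets (chr12:4862440-4874359, minus strand), was at 287 and 301 CPM in CMP and 1.35 and 5.74 CPM in GMP (log2 fold change -6.40, SE 0.62, adjusted p = 0.0213). The water channel gene Aqp1 was at 96.0 and 101 against 0.901 and 3.46 CPM (log2 fold change -5.52).

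The 1 erythroid member that was higher, Tfrc, is used by dividing cells of all kinds. Gypc, glycophorin C, was not called (76.2 and 82.3 CPM in CMP and 70.7 and 68.2 CPM in GMP, log2 fold change -0.19). The globin gene Hba-a1, which is nearly identical to another copy, had 48 reads over the CMP and 3 over the GMP libraries. GMP replicate 2 was above GMP replicate 1 in 19 of the 23 erythroid genes. The same was so for 51.0% of all tested genes and 62.2% of all genes called lower. The summed level of these genes was 331.8 and 368.8 CPM in GMP against 1202 and 1268 CPM in CMP. Between 16 and 20 members were called lower when 1 library was left out. Without CMP replicate 1 or CMP replicate 2 the calls of Mfsd2b and Aqp1 ended (highest adjusted p = 0.174 for each), with ranges over the 12 alternatives of 9.84e-243 to 0.174 and 1.81e-149 to 0.174 and the call kept in 9 and 9 of them.

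Transcription factors of the erythroid, megakaryocyte and stem programmes were lower in 18 of 29 and higher in none, with a median log2 fold change of -1.19. Gata1 was at 93.6 and 112 CPM in CMP and 4.20 and 8.46 CPM in GMP (log2 fold change -4.03, SE 0.37, adjusted p = 0.00646). Gfi1b, the paralogue of Gfi1 in this branch, was at 61.3 and 69.3 CPM in CMP and 1.80 and 5.00 CPM in GMP (log2 fold change -4.28, SE 0.50, adjusted p = 0.0138), and moved opposite to Gfi1. Tal1, a partner of GATA factors, was at 27.4 and 29.8 CPM in CMP and 7.42 and 9.81 CPM in GMP (log2 fold change -1.73, SE 0.15, adjusted p = 6.44e-06). Meis1, a homeobox factor of stem cells, was at 149 and 157 CPM in CMP and 21.7 and 29.7 CPM in GMP (log2 fold change -2.58, SE 0.13, adjusted p = 8.30e-06). Mycn, the Myc family member, was at 46.9 and 69.2 CPM in CMP and 0.180 and 2.12 CPM in GMP (log2 fold change -5.69, SE 0.93, adjusted p = 0.0483). The calls of Gata1, Gfi1b and Mycn ended without CMP replicate 1 or CMP replicate 2 (highest adjusted p = 0.0833, 0.157 and 0.270), and over the 12 alternatives the adjusted p ran from 1.80e-99 to 0.0833, 2.63e-97 to 0.157 and 2.96e-06 to 0.27, with the call kept in 10, 9 and 8 of them.

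Gata2, the GATA factor of stem and mast cells, was at 339.5 and 411 CPM in CMP and 31.2 and 61.5 CPM in GMP and missed the threshold (log2 fold change -3.02, SE 0.48, adjusted p = 0.0503). It was called in 8 of the 12 alternatives (adjusted p from 2.37e-47 to 0.263). Zfpm1, the GATA1 cofactor FOG1, was at 61.4 and 42.3 CPM in CMP and 1.92 and 6.41 CPM in GMP and was not called (log2 fold change -3.65, SE 0.72, adjusted p = 0.0638). It was called in 4 of the 12 alternatives (adjusted p from 1.33e-09 to 0.29). Lmo2 (log2 fold change -0.35), Nfe2 (log2 fold change -0.56) and Fli1 (log2 fold change -0.10) were not called.

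Stem cell genes were lower in 20 of 28 tested members and higher in 1. Adgrg1, an adhesion receptor of stem cells, had the largest difference in CPM of all lower genes, with 1256 and 1308 CPM in CMP and 335 and 422 CPM in GMP (log2 fold change -1.76, SE 0.12, adjusted p = 4.78e-04). Apoe, apolipoprotein E, was at 578 and 631 CPM in CMP and 48.2 and 91.4 CPM in GMP (log2 fold change -3.12, SE 0.45, adjusted p = 0.0424). Angpt1, angiopoietin 1, was at 264 and 300.5 CPM in CMP and 32.7 and 54.9 CPM in GMP (log2 fold change -2.69, SE 0.35, adjusted p = 0.0296). Robo4 had 122 reads over the CMP libraries and none in GMP, at least 38.7-fold lower against a floor of 3 reads over the GMP libraries. Hlf (log2 fold change -0.98) and Mecom (log2 fold change -1.37), factors of stem cell identity, were lower, and Procr (1.68 and 1.37 against 1.02 and 0.769 CPM) and Ly6a (1.29 and 1.34 against 1.92 and 1.38 CPM) were low in both and not called.

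The exception among stem cell genes was Gstm1, a glutathione transferase, at 138 and 98.5 CPM in CMP and 859.7 and 823 CPM in GMP (log2 fold change 2.83, SE 0.22, adjusted p = 0.0062). Leaving out GMP replicate 1 or GMP replicate 2 ended its call (highest adjusted p = 0.131, 2.44e-28 to 0.131 over the 12 alternatives). Apoe and Angpt1 were no longer called without CMP replicate 1 or CMP replicate 2 (highest adjusted p = 0.243 and 0.212; ranges 5.27e-151 to 0.243 and 7.60e-102 to 0.212 over the 12 alternatives, of which 8 and 9 kept the call).

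The largest downward fold changes, at 10 CPM or more in CMP, were those of Trib2, Tspo2, Mfsd2b, Atp1b2, F2r, Parm1, Slc35d3, Samd14, Trpc6 and Gm15915. Trib2, a pseudokinase that promotes the degradation of C/EBP-alpha, was at 49.6 and 51.7 CPM in CMP and 0.420 and 0.385 CPM in GMP (log2 fold change -6.96, SE 0.16, adjusted p = 1.20e-09). Tspo2, an erythroid cholesterol transporter, was at 14.8 and 13.9 CPM in CMP and 0.0601 and 0.256 CPM in GMP (log2 fold change -6.50, SE 0.33, adjusted p = 2.00e-07). Samd14, a GATA target in erythroid precursors, was at 38.0 and 38.6 CPM in CMP and 0.240 and 0.962 CPM in GMP (log2 fold change -6.01, SE 0.33, adjusted p = 9.42e-06). F2r, the thrombin receptor, was at 216 and 233 CPM in CMP and 1.5 and 5.32 CPM in GMP (log2 fold change -6.06, SE 0.56, adjusted p = 0.0172). Its call ended without CMP replicate 1 or CMP replicate 2 (highest adjusted p = 0.166, 6.50e-222 to 0.166 over the 12 alternatives, of which 9 kept the call). Gm15915 is an antisense gene, whose reads cannot be told apart from those of the opposite strand here. Ripor1, among the 5 largest differences in CPM, was at 402 and 451 CPM in CMP and 144 and 181 CPM in GMP (log2 fold change -1.39, SE 0.13, adjusted p = 0.00108).

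**Figure D3:**
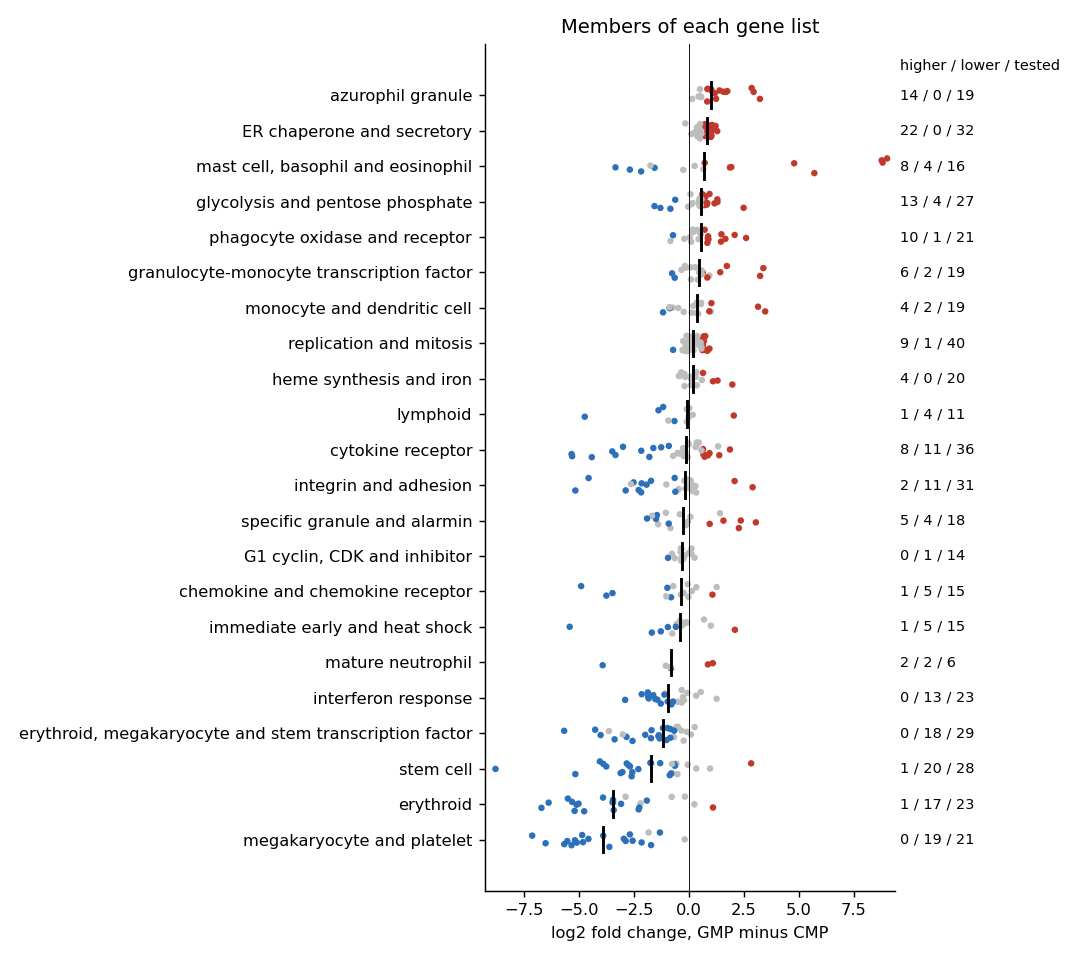
Each point is a tested member of 1 of 22 gene lists, placed by its log2 fold change (GMP minus CMP), in red if called higher, blue if called lower and grey if not called, and the black bar is the median of the list. The azurophil granule and secretory lists lie to the right, the megakaryocyte and erythroid lists furthest to the left, and the mast cell, basophil and eosinophil list is the widest. The fold changes of Cma1 and Robo4 rest on a group without a read and are no measure of size.

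Receptors for growth factors changed in both directions. Of 36 tested cytokine receptor genes, 8 were higher and 11 lower, beside 6.1% and 11.8% of all tested genes. With scaling by total counts alone 4 were higher and 13 lower, and at a fold threshold of 2, 2 were higher and 10 lower. Among receptor chains of granulocyte and monocyte growth factors, Csf2ra (58.2 and 46.0 CPM in CMP and 141 and 129.5 CPM in GMP, log2 fold change 1.38) and Csf3r (132 and 111 against 227 and 214 CPM, log2 fold change 0.86) were higher. Csf1r was not called (log2 fold change 0.35). Ifngr1 was higher as well (log2 fold change 0.93). The receptors for erythropoietin and Flt3 ligand were lower, Flt3 at 178 and 202 CPM in CMP and 16.5 and 17.1 CPM in GMP (log2 fold change -3.50, SE 0.08, adjusted p = 1.20e-09). Il17ra (197 and 249 CPM in CMP and 86.7 and 98.2 CPM in GMP, log2 fold change -1.27), Tgfbr2 (log2 fold change -1.63) and Il1r1 (log2 fold change -1.81) were lower too. Kit, the stem cell factor receptor, was at 855 and 858 CPM in CMP and 563 and 628 CPM in GMP, which missed the fold threshold (log2 fold change -0.52) and passed it in 2 of the 12 alternatives.

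Fcgr3 and Fcgr2b, the Fc receptors CD16 and CD32, and Cd34 are classically used to separate CMP from GMP by flow cytometry, so their values describe the populations and are not findings. Fcgr3 was at 41.4 and 31.3 CPM in CMP and 358 and 347 CPM in GMP (log2 fold change 3.28) and Fcgr2b at 47.4 and 44.5 CPM in CMP and 114 and 109 CPM in GMP (log2 fold change 1.28). Cd34 was at 845 and 859 CPM in CMP and 574 and 609 CPM in GMP (log2 fold change -0.53). Of 31 integrin and adhesion genes, 2 were higher, Vcam1 (1.75 and 2.53 CPM in CMP and 15.9 and 15.9 CPM in GMP, log2 fold change 2.89) and Itga1 (log2 fold change 2.07), and 11 were lower, beside 6.1% higher and 11.8% lower among all tested genes. Of 15 chemokine and chemokine receptor genes, 1 was higher, Ccl6 (log2 fold change 1.07), and 5 were lower, among them Cxcr2, the receptor of mature neutrophils (11.5 and 11.2 CPM in CMP and 5.92 and 6.92 CPM in GMP, log2 fold change -0.82). The lower chemokine genes were 3 at a fold threshold of 2, and 2 when genes had to exceed 1 CPM in 2 libraries to be tested.

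Interferon response genes were lower in 13 of 23 members and higher in none, with a median log2 fold change of -0.973. Irf7 was at 8.93 and 8.84 CPM in CMP and 2.76 and 2.98 CPM in GMP (log2 fold change -1.63, SE 0.19, adjusted p = 5.90e-05). Usp18 was at 11.9 and 13.6 against 4.08 and 4.68 CPM (log2 fold change -1.54) and Ifit1 at 3.61 and 3.68 against 1.14 and 0.833 CPM (log2 fold change -1.88). Gbp3 pointed the other way without being called (87.5 and 82.2 CPM in CMP and 125 and 120.2 CPM in GMP, log2 fold change 0.53). The count of lower members was 12 to 14 when 1 library was left out and 13 or 14 in the other fits at the same fold threshold, and without CMP replicate 1 a single member was higher.

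Most lymphoid transcripts were few. Dntt, terminal transferase of early lymphoid cells, was at 17.5 and 25.2 CPM in CMP and 0.871 and 0.705 CPM in GMP (log2 fold change -4.75, SE 0.25, adjusted p = 2.32e-07). Satb1 was at 85.6 and 87.3 CPM in CMP and 34.3 and 42.1 CPM in GMP (log2 fold change -1.18). Cd3e and Pax5 had no read in the 4 libraries, Cd79a had 10 reads over each population and Il7r 28 over CMP and 4 over GMP. Of 11 tested lymphoid genes, 4 were lower and 1 higher, and none was higher without CMP replicate 2. Over all tested genes, 11.8% were lower and 6.1% higher. Immediate early and heat shock genes were lower in 5 of 15 members and higher in 1, led by Egr1 at 6.19 and 18.3 CPM in CMP and 0.180 and 0.385 CPM in GMP (log2 fold change -5.44, SE 0.93, adjusted p = 0.0215). Without CMP replicate 2 the lower members were 3, and without GMP replicate 1 the higher members were 2. In 13 of the 15 genes CMP replicate 2 was above CMP replicate 1, and in 13 GMP replicate 2 was above GMP replicate 1. For all tested genes these shares were 49.9% and 51.0%. The call of Egr1 ended without GMP replicate 1 or GMP replicate 2 (highest adjusted p = 0.347, 2.90e-09 to 0.347 over the 12 alternatives, of which 9 kept the call).

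Cell cycle genes showed small differences. Of 40 replication and mitosis genes, 9 were higher and 1 lower, beside 6.1% and 11.8% of all tested genes. Their median log2 fold change was 0.188. Plk1, at 87.5 and 90.9 CPM in CMP and 172 and 168 CPM in GMP (log2 fold change 0.93, SE 0.06, adjusted p = 4.95e-07), led the members that rose. These members also included Aurka, Aurkb, Ccnb1, Cdc20, Cdk1 and Birc5, and Rrm2 (log2 fold change 0.76) and Cdc45 of DNA synthesis. Mki67, the proliferation marker, was at 259.5 and 250.3 CPM in CMP and 269 and 264 CPM in GMP (log2 fold change 0.06) and Mcm6, of the replicative helicase, at 1077 and 1033 CPM in CMP and 985 and 968 CPM in GMP (log2 fold change -0.11), and neither was called. E2f2 was lower (log2 fold change -0.72), and so was the cell cycle inhibitor Cdkn1a (27.2 and 32.3 CPM in CMP and 12.3 and 18.4 CPM in GMP, log2 fold change -0.96). Of 14 tested G1 cyclins, CDKs and inhibitors, Cdkn1a was the 1 member called, beside 11.8% called lower among all tested genes. With scaling by total counts alone 2 of the replication and mitosis genes were higher, and at a fold threshold of 2 none was. None of 5 X and Y linked genes was called. Of 6 tested genes that the study discusses in HSC, 1 was called, beside 17.9% of all tested genes. It was Selp, which encodes P-selectin (25 and 23.1 CPM in CMP and 5.76 and 5.00 CPM in GMP, log2 fold change -2.16).

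The MEP libraries place these differences beside the third progenitor, on a CPM scale shared by the 6 libraries and with no test. The tested genes were filtered on CMP and GMP alone. Genes expressed mainly in MEP, such as Cldn13 with 8811 and 8967 raw reads there, are therefore missing from all shares given here. Of the 1065 genes higher in GMP, 816 (76.6%) had a lower mean in MEP than in either CMP or GMP, beside 45.5% of all tested genes. The median level of the 1065 genes was 9.89 CPM in CMP, 24.3 in GMP and 1.26 in MEP. Of the 2055 genes lower in GMP, 548 (26.7%) had their highest mean in MEP and 959 (46.7%) their lowest, beside 40.0% and 45.5% of all tested genes. Mpo stood at 27.6 and 12 CPM in MEP, and Elane at 7.74 and 1.15 CPM. Klf1 was at 822 and 804 CPM in MEP, Gata1 at 432 and 410.1 CPM, Gfi1b at 469 and 496 CPM and Epor at 190.2 and 199 CPM, each above both CMP and GMP.

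Of the 21 megakaryocyte and platelet genes tested, 14 had a lower mean in MEP than in either CMP or GMP, beside 45.5% of all tested genes, and 7 lay between. Pf4 stood at 0.857 and 0.691 CPM in MEP and Itga2b at 2.57 and 2.76 CPM, both below both CMP libraries. Gp5 (32.4 and 47.1 CPM), Vwf (16.8 and 16.1 CPM) and Gp9 (5.22 and 5.15 CPM) were above both GMP libraries in MEP. Meis1 (2.08 and 2.33 CPM), Flt3 (1.08 and 0.691 CPM) and Angpt1 (8.99 and 11.8 CPM) were lower in MEP than in CMP. The CMP libraries held the highest mean of the 3 populations for all 8 of these genes.

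**Figure D4:**
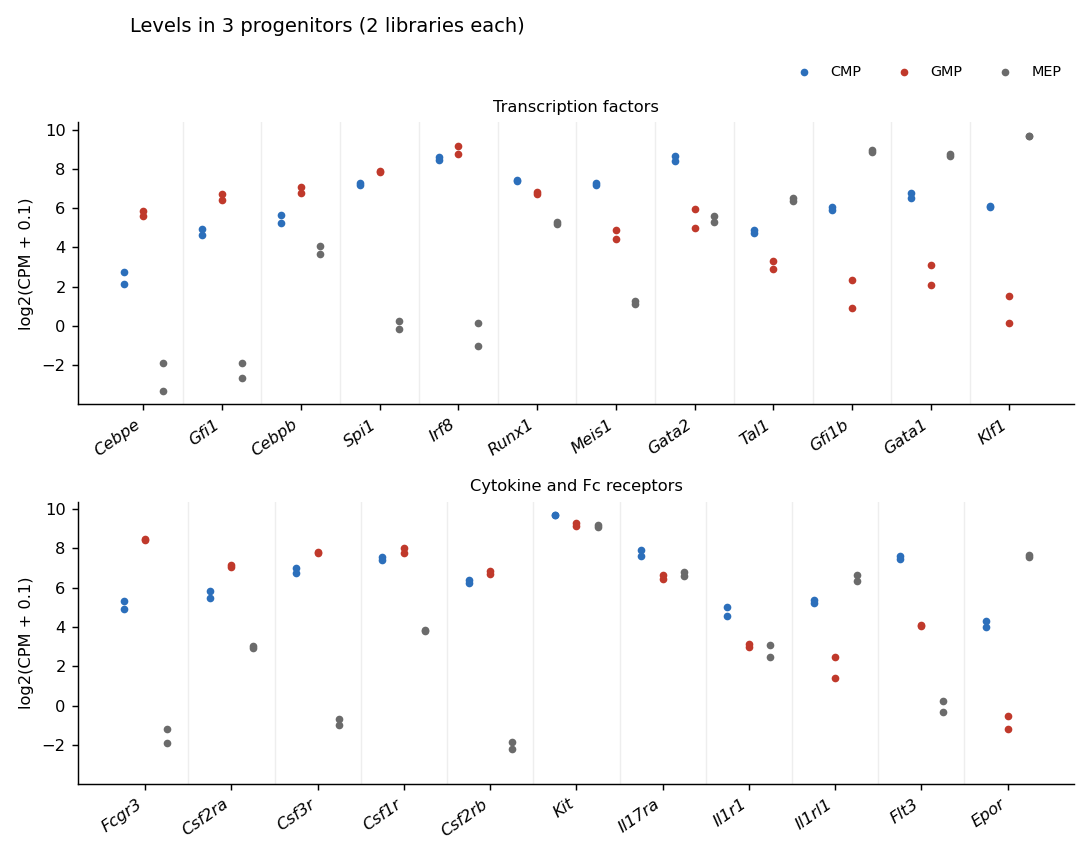
Levels of 12 transcription factor genes and 11 receptor genes are plotted as log2(CPM + 0.1) in CMP (blue), GMP (red) and MEP (grey), 1 point a library, on a scale shared by the 6 libraries. Cebpe, Gfi1 and Fcgr3 are highest in GMP, Meis1 and Flt3 in CMP, and Gata1, Gfi1b, Klf1 and Epor in MEP.

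A readout from other cells was available in the histone marks of young hematopoietic stem cells (HSC), the ancestors of CMP, with 2 libraries a mark. H3K4me3 and H3K27ac mark active promoters and H3K27me3 marks those held silent by Polycomb. Peaks and their place at promoters (TSS-proximal) are those of the authors, and a peak can be assigned to several genes. The peak lists are shared by young and old HSC, and no threshold was set on the signal in young HSC. Some listed peaks were weak there, as at Mki67 (H3K27me3 signal 0.13 and 0.0888). Values are a description over genes, with no test. A promoter peak of H3K27me3 was listed for 294 of the 1065 genes higher in GMP (27.6%), 400 of the 2055 lower (19.5%) and 1218 of the 14338 not called (8.49%). For H3K4me3 the shares were 67.6%, 74.7% and 66.0%, and for H3K27ac 64.9%, 71.3% and 63.9%. Where a peak was present, the median H3K4me3 signal (scaled by the authors to a fixed number of reads) in the 2 libraries was 16.39 and 16.89 at genes higher in GMP, 17.34 and 17.81 at genes lower, and 20.56 and 21.62 at genes not called.

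Named genes differed widely in these marks. Meis1 had the marks of an active promoter in HSC, with an H3K4me3 signal of 44.7 and 46.7, an H3K27ac signal of 16.8 and 14.1 and no H3K27me3 peak. Mpo had a promoter peak of H3K27me3 alone (0.768 and 0.821), and Elane, Prtn3 and Ms4a3 had no promoter peak of any of the 3 marks. Gfi1 carried H3K4me3 (15.5 and 15.8) together with H3K27me3 (1.33 and 1.64), and so did Epor (13.3 and 14.6, and 1.29 and 1.32) and Klf1 (18.4 and 17.9, and 0.518 and 0.543). H3K27ac peaks were also listed for Gfi1 (2.22 and 1.38), Epor (1.57 and 1.11) and Klf1 (3.10 and 2.33). Prg2 had H3K27ac (1.11 and 0.929) and H3K27me3 (0.433 and 0.649) peaks and none of H3K4me3.

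**Figure D5:**
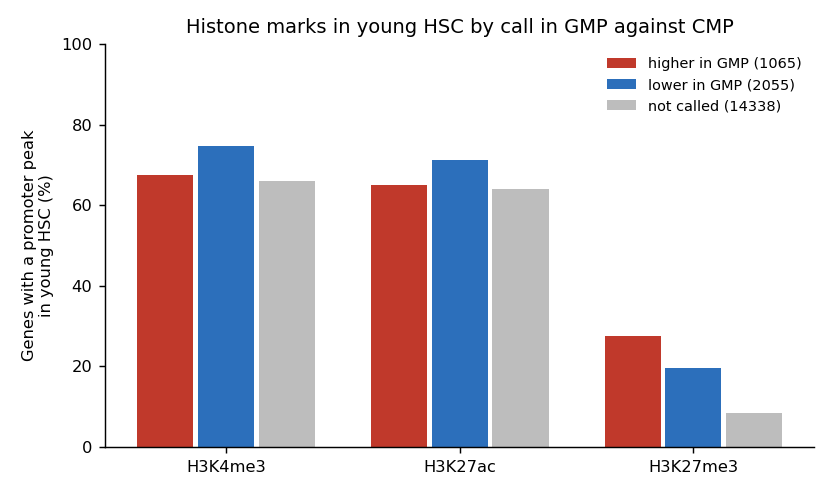
Bars give the percentage of genes with a listed promoter peak of H3K4me3, H3K27ac or H3K27me3, for genes called higher in GMP (red), lower in GMP (blue) and not called (grey), on an axis from 0 to 100%. The peak lists are shared by young and old HSC. H3K27me3 peaks are at 27.6% of the higher, 19.5% of the lower and 8.49% of the genes not called.

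The promoter letters shown above were counted over all genes with a promoter in the RefSeq table, which runs from 250 bases before to 50 bases after the start and held 10716 of the 17458 tested genes. On either strand, TTNNGCAA (C/EBP) was present for 15.5% of the 742 genes higher in GMP, 10.7% of the 1370 lower and 10.2% of all tested genes, against 10.8% of all 32851 promoters. For GATA factors the letters searched, AGATAA, were present for 8.09%, 11.3% and 8.3%, against 11.2% of all promoters. GAGGAAGT (PU.1) was present for 4.58%, 4.74% and 3.97%, against 3.2% of all promoters. The short letters CACCC (KLF) were present for 68.2%, 72.1% and 66.1% (57.5% of all promoters), and TGTGGT (RUNX) for 19.5%, 18% and 15.7% (16.8%). The motifs were searched separately and may overlap, and a match is not a measured site.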

How the data were processed

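Young CMP, GMP and MEP from mouse bone marrow were profiled by RNA-seq, with 2 libraries each (label: polyA RNA, SMARTer total RNA kit). The authors used trim galore, STAR (mm10) and featureCounts (GENCODE M22, gene level) and deposited raw counts. No source used here states the strand and multimapping settings. For young HSC the authors deposited the signal per peak of each histone mark library, from reads scaled to a fixed number, and their old against young fold changes, which were not used. 4 columns of per-sample values could be tied to no sample and were not used.

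Genes were filtered with filterByExpr, scaled by TMM and tested with edgeR's quasi-likelihood test (edgeR 4.0.16, R 4.3.3) on the 4 libraries of CMP and GMP, without a block. Calls needed a fold change above 1.5 and a Benjamini-Hochberg adjusted p below 0.05, and the standard error (SE) of a log2 fold change is its size divided by the square root of F. The same steps were tested on simulated data. No 2 libraries of a population agreed within sampling noise. No source used here states whether same-numbered libraries were paired. The correlation of deviations of CMP replicate 1 with GMP replicate 1 was 0.0541, a single value over all genes that cannot exclude pairing. Library totals of 33177394 to 36510850 reads set the precision, 3 reads stood for a count of 0, and intervals and floors cover counting error only.

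The members and gene lists were chosen with earlier results of these data known. Genes named are the 10 largest fold changes in each direction among called genes whose groups did not overlap and that reached 10 CPM, the 5 largest CPM differences, marker genes, and for each list the most abundant, most changed and contrary members. Some genes are not reported here. Alternatives were DESeq2 1.42.0, other scalings, filters and fold thresholds, a fit with MEP, a replicate block and leaving out each library. The 4 single-library fits leave 1 library in a group, which is then assumed to vary like the other group. Gene positions are from GENCODE (mm10) and promoters from RefSeq. Tables and plots were made with Python 3.11.15.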

Additional observations from a re-analysis of the deposited data

How the results depend on the processing

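No gene called in either direction was called in the opposite one under any of the 14 alternatives. At a fold threshold of 2, 567 genes were higher and 1381 lower, and with no fold threshold 2967 and 3302. Leaving out 1 library gave 878 to 1080 higher and 1588 to 2234 lower genes, with 72.7% to 88.4% of the calls shared. DESeq2 called 969 and 1769 genes, and the replicate block 1090 and 2125. Under the block 14 megakaryocyte genes were called lower, against 19 without it. Whether replicate numbers mark pairs is not stated, so the block stands as an alternative. The sign of S100a8 turned to 0.34 without CMP replicate 1 and 0.088 without GMP replicate 1, with -0.34 as the lowest value (without CMP replicate 2). That of Cpa3 turned to 0.10 without GMP replicate 1 (lowest -0.74 without GMP replicate 2). With total counts alone Mki67 (-0.12) and Ldha (-0.049) turned, and the log2 fold change of Btaf1 turned without CMP replicate 2 (0.010, -0.0968 without CMP replicate 1, and -0.233 with total counts alone). None of these 5 genes was called with all libraries. With total counts alone 7 glycolysis genes were higher, against 13. With any peak in place of promoter peaks the median H3K27me3 signal moved from 0.604 to 0.573 at higher and from 0.650 to 0.586 at lower genes, and on the given strand alone C/EBP letters stood at 9.57% of higher and 5.55% of lower genes. The causes were not tested. Genes that did not pass the filter on low counts were not tested, including some with more than 3 reads. Those at or under the floor of 3 reads in both populations could not be compared at this depth.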
